A study of Mus musculus with 7 samples.

Results

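G1E-ER4 cells that differentiated for 24 h in the presence of the metal chelator DTPA were compared with cells that differentiated for 24 h without it. G1E-ER4 is 1 clonal line of mouse erythroid progenitors. Its own Gata1 gene is disrupted, and a GATA1 protein fused to the hormone-binding domain of the estrogen receptor was introduced, so that estradiol releases erythroid maturation in culture. All 6 libraries compared come from cells given 100 nM β-estradiol in medium with serum, erythropoietin and Kit ligand. The 3 control libraries had no chelator, and the 3 DTPA libraries had 50 µM DTPA added when differentiation began. The labels call the replicates biological and describe the 2 conditions as normal and low zinc. The series holds 7 libraries in all; the other one is a single library of undifferentiated cells at 0 h, which entered no test and is quoted only beside the others. Of 55367 gene symbols in the deposited tables, the 11147 with at least 1 TPM (transcripts per 1000000 transcripts, a length-corrected share of the library) in at least 3 of the 6 libraries were compared.

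Cells sense free zinc through the transcription factor MTF1, which binds metal response elements when zinc is plentiful and switches on metallothionein genes and the exporter ZnT1. ZIP transporters, encoded by Slc39a genes, bring zinc into the cytosol, and ZnT transporters, encoded by Slc30a genes, move it out of the cytosol. ZIP10, the product of Slc39a10, is the importer named in the title of the series. Maturing erythroblasts induce globin, heme and membrane genes under GATA1 and leave the cell cycle after a few last divisions. DTPA also binds other metals, such as iron, copper and manganese, and stays largely outside cells.

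An estimated 17.68 to 18.6 M gene-assigned reads stood behind each control and 19.79 to 21.2 M behind each DTPA library (1 M is 1000000), and 1 read in a gene of 2 kb was worth 0.0696 to 0.0857 TPM. Across genes, log2(TPM + 1) values of 2 libraries correlated at 0.988 to 0.99 within a group and at 0.947 to 0.951 between the groups; genes are no replicates, so this only describes the libraries. Erythroid identity was plain in all 6 libraries. Alas2, the erythroid enzyme that starts heme synthesis, stood at 1913, 2007 and 1892 TPM in the controls and 2510.3, 2585 and 2518 TPM under DTPA. Klf1, an erythroid transcription factor, stood at 869, 871 and 701 TPM in the controls and 841, 832 and 841 TPM under DTPA, and these groups overlapped. Of 20 narrow markers of platelets, mast, myeloid, lymphoid, stromal, endothelial and epithelial cells, 12 were listed at 0 in all 6, among them Ppbp, Vwf, Cpa3, Mcpt8, Tpsb2, Fcer1a, Mpo, Lyz2, Cd3e, Col1a1 and Cdh5. The other 8 stayed under 5 TPM.

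Most of the genes tested differed between the groups. In the limma fit, 6474 genes (58.1% of those tested) passed an adjusted p of 0.05; 2415 (21.7%) were higher and 4059 (36.4%) lower under DTPA. Most shifts were small: 1413 of the higher and 2492 of the lower genes changed by less than 1.5-fold. A change of at least 2-fold on the log2(TPM + 1) scale was found in 392 higher genes (3.52%) and 580 lower genes (5.20%). Changes given below without a unit, medians included, are log2 fold changes of TPM + 1, DTPA against control. At 8-fold or more there were 9 higher and 32 lower genes. The 3 libraries of one group did not overlap the 3 of the other in 7249 genes (65.0%), 2753 (24.7%) higher and 4496 (40.3%) lower under DTPA. TPM are shares of a library, so these counts describe the make-up of the RNA, and in such bulk samples fewer cells of a type and less RNA per cell cannot be told apart. The balance moved with the scaling. Higher genes made up 37.3% of the calls as deposited, 40.4% when globin genes were left out of the total, 47.9% with median-of-ratios factors (3047 higher, 3315 lower) and 50.8% after quantile normalization (3201 and 3106). The median log2 fold change over all genes was -0.09, -0.06, 0.0 and 0.01 in the same order.

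**Figure D1:**
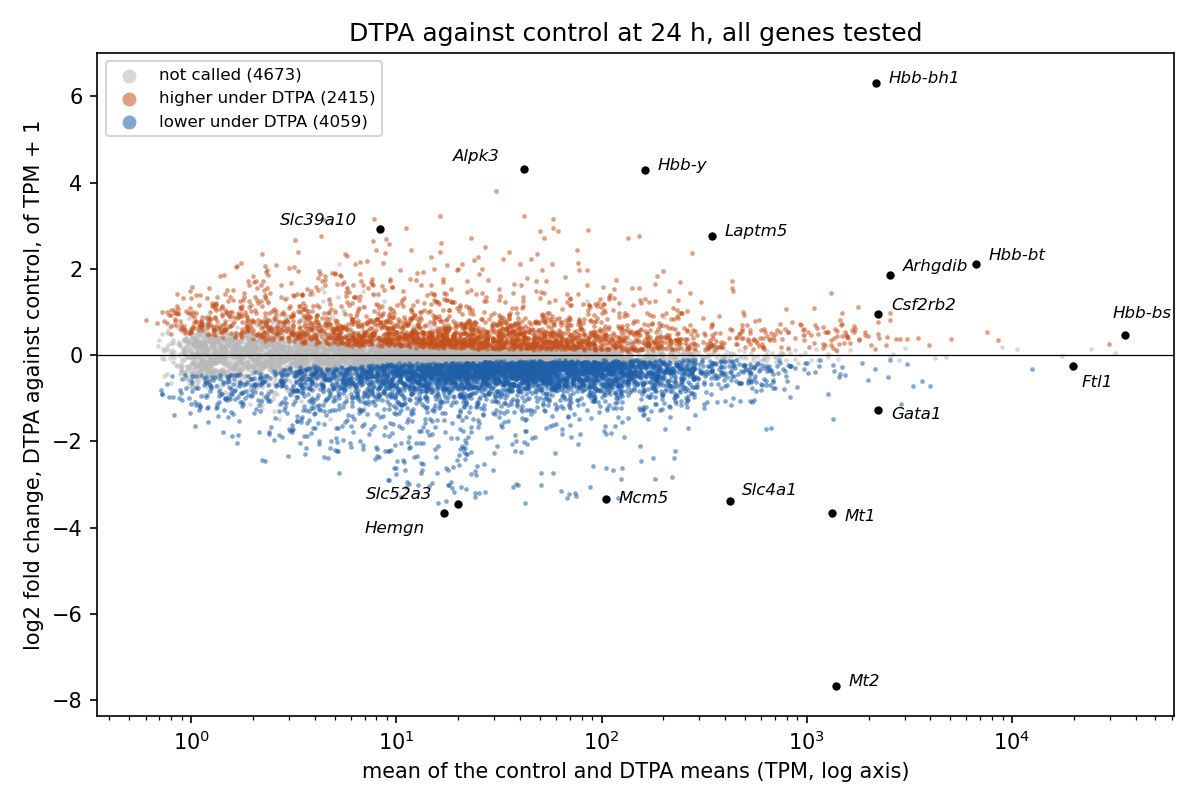
Each point is 1 of the 11147 genes tested; the horizontal axis is the mean of the control and DTPA means in TPM (log axis) and the vertical axis the log2 fold change of TPM + 1, DTPA against control. The 2415 higher genes are orange, the 4059 lower genes blue and the rest grey; Mt2 at -7.66 and Hbb-bh1 at 6.31 lie farthest from 0.

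The share of genes called was larger at higher abundance, from 34.8% of the 2511 genes with a mean under 5 TPM to 83.8% of the 117 genes at 1000 TPM or more. In that most abundant class 70 genes were higher and 28 lower, and its median log2 fold change was 0.25, whereas the 1530 genes from 100 to 1000 TPM had 372 higher, 818 lower and a median of -0.17. Summed over all genes tested and untested, 141292 TPM moved from transcripts that were lower to transcripts that were higher under DTPA. The 15 largest gains held 35.0% of that amount and the 15 largest losses 17.8%. The gains were led by the adult beta globin genes. Hbb-bs stood at 29941, 30395 and 28189 TPM in the controls and 36794, 46906 and 40212 TPM under DTPA. Arhgdib, which encodes a GDP-dissociation inhibitor of small GTPases in blood cells, rose from 1086, 1082 and 1158 to 3953, 4093 and 3934 TPM. Neurl3, encoding a ubiquitin ligase of the Neuralized family, rose from 705, 681 and 712 to 1954, 1853 and 1942 TPM. Both groups were tight for Arhgdib and Neurl3, with log2 fold changes of 1.85 and 1.45 (limma adjusted p = 1.12e-07 and 1.82e-07). Further gains came from the mitochondrial genome and from elongation factors: mt-Co1 had a log2 fold change of 0.25, mt-Rnr1, the small mitochondrial ribosomal RNA, 1.13, Eef2 0.38 and Eef1a1 0.36. The remaining gains, among them 2 unnamed predicted genes, included Rplp1 of the ribosomal stalk (0.55), Hbb-bt, Hbb-bh1 and Csf2rb2, which are described below with their groups, and mt-Cytb and mt-Nd5, which did not pass (0.14 and 0.20).

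The losses were led by Ftl1, the ferritin light chain that stores iron, at 21747, 22547 and 20328 TPM in the controls and 17784, 18088 and 18502 TPM under DTPA. The selenium proteins Selenow and Gpx1, the second a glutathione peroxidase that removes peroxides, fell (log2 fold changes -0.72 and -0.60). The peroxiredoxin gene Prdx2, one of the most abundant antioxidant genes of red cells, fell from 2376, 2424 and 2314 to 1635, 1574 and 1588 TPM, and Car2, a zinc enzyme that hydrates carbon dioxide, fell from 4940.2, 5002 and 4968 to 3046, 2982 and 3063 TPM. In both genes every DTPA library lay below every control. Atp1b2, a beta subunit of the sodium pump, fell from 1936, 1959 and 1991 to 662, 763 and 706 TPM (log2 fold change -1.47, limma adjusted p = 6.96e-07). Several of these most abundant genes were sensitive to the scaling. After quantile normalization Hbb-bs, mt-Co1, Ftl1 and Hba-a1 no longer passed (adjusted p = 0.408, 0.729, 0.213 and 0.0999), and Eef1a1 and Rplp1 turned to -0.03 and -0.09. Without a filter on low values the same 4 genes did not pass either (adjusted p = 0.308, 0.529, 0.434 and 0.192), mt-Co1 was lost without control replicate 1 or 2 (0.067 and 0.0753), and Ftl1 and Hba-a1 were lost with median-of-ratios factors (0.11 and 0.0801).

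Zinc-handling genes showed both the largest fall and 1 of the largest rises. Mt2, which encodes a small zinc-binding metallothionein, stood at 2769, 2897 and 2592 TPM in the controls and 11.96, 13.7 and 12.1 TPM under DTPA, with 2018 TPM at 0 h. Its neighbour Mt1 stood at 2549, 2686 and 2159.8 TPM in the controls and 184, 203 and 198 TPM under DTPA. No DTPA library came near a control: Mt2 was 219-fold and Mt1 12.6-fold lower in mean TPM, with log2 fold changes of -7.66 ± 0.06 and -3.65 ± 0.08 (SE; limma adjusted p = 2.27e-09 and 1.01e-07). Slc39a10 stood at 1.24, 1.21 and 1.04 TPM in the controls and 15.1, 15.5 and 15.9 TPM under DTPA, and at 37.3 TPM at 0 h. Its DTPA libraries were all above all controls and all below the 0 h library; in mean TPM the gene was 13.4-fold higher than in the controls, a log2 fold change of 2.93 ± 0.09 (SE; adjusted p = 2.46e-07). The exact two-sided permutation test gave p = 0.1 for each of these 3 genes, the smallest that 3 against 3 libraries allow.

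The metal response element core (TGCACNC or TGCGCNC, either strand) was looked for in RefSeq promoter windows on GRCm38.p6, each from 250 bases before to 50 after a transcript start. The windows of Mt1 (chr8:94178839-94179138, plus strand) and Mt2 (chr8:94172368-94172667, plus strand) are shown because they hold several copies beside the largest falls. Capitals mark the matches; a capital run that reads GTGTGCA or GTGCGCA is a match on the other strand.
Mt1: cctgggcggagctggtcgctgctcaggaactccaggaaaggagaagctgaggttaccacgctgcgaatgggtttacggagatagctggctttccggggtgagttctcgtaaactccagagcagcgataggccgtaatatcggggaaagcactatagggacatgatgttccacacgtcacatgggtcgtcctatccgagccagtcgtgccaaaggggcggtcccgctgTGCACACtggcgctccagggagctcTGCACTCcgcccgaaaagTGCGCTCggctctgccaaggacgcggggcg
Mt2: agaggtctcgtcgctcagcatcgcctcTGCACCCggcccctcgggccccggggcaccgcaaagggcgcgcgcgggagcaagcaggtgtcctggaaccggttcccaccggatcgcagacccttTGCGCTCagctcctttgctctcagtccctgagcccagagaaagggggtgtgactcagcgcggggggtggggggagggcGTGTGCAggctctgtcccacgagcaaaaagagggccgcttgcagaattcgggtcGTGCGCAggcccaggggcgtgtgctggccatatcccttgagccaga
Mt1 held 3 copies, at positions -23 to -17, 3 to 9 and 21 to 27 from the annotated start (the start is position 1), and Mt2 held 4, the nearest at 5 to 11. The window of Slc30a1, the gene of the exporter ZnT1, held 2 copies, and neither of the 2 windows of Slc39a10 held any. The core is short and common: 37.2% of the 6142 tested genes with exactly 1 window had at least 1 copy, against 38.3% of the genes at least 2-fold lower and 33.9% of those at least 2-fold higher.

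The other transporters moved far less. Slc30a1 stood at 29.2, 30.7 and 27.9 TPM in the controls and 42.6, 40.4 and 44.7 TPM under DTPA, so that it rose while the metallothioneins fell (log2 fold change 0.53, adjusted p = 1.62e-04). Of 9 ZIP genes tested, 2 rose and 2 fell (44.4% called, against 58.1% over all genes tested). All 7 ZnT genes tested were called, 3 upward and 4 downward. The DTPA and control libraries of Slc39a1, which imports zinc at the cell surface, did not overlap (32.4, 32.9 and 28.6 TPM in the controls and 42.9, 42.2 and 44.5 TPM under DTPA). Slc39a8, the ZIP gene with the highest TPM at 24 h, stood at 296, 291 and 306 TPM in the controls and 264, 243 and 244 TPM under DTPA, and its call was lost after quantile normalization (-0.09, adjusted p = 0.146). Slc39a3 fell by 0.72 on the log2 scale. No call was made for Slc39a13 (0.08), Slc39a11 (-0.02), Slc39a9 (-0.01), Slc39a7 (0.36) or Slc39a6 (0.11). Slc30a10 and Slc30a7 rose (0.54 and 0.41), and Slc30a5 and Slc30a9 fell (-0.52 and -0.51). The 2 other falls were unstable. Slc30a2 (-0.67) was lost when any control or DTPA replicate 1 or 2 was left out (adjusted p = 0.0504 to 0.0664). Slc30a6 (-0.31) was lost when replicate 1 or 3 of either group was left out (0.0526 to 0.0603) and under median-of-ratios or quantile scaling (0.0571 and 0.0743). Mtf1 itself fell, from 27.7, 28.9 and 26.8 to 19.3, 18.02 and 20.7 TPM. Of 15 copper and manganese genes tested, 3 rose and 4 fell, none by 2-fold, with a median of -0.09. The called share of 46.7% is below the 58.1% over all genes tested (21.7% higher and 36.4% lower), and the median equals that over all genes. Under quantile normalization 6 rose and 4 fell, with a median of 0.05. Exons of Mtf1, Slc30a1, Slc30a10, Slc39a9 and Slc39a13 overlap those of a gene on the opposite strand; the strand setting of the counting is not given in the sources used here, so reads of such pairs cannot be told apart.

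**Figure D2:**
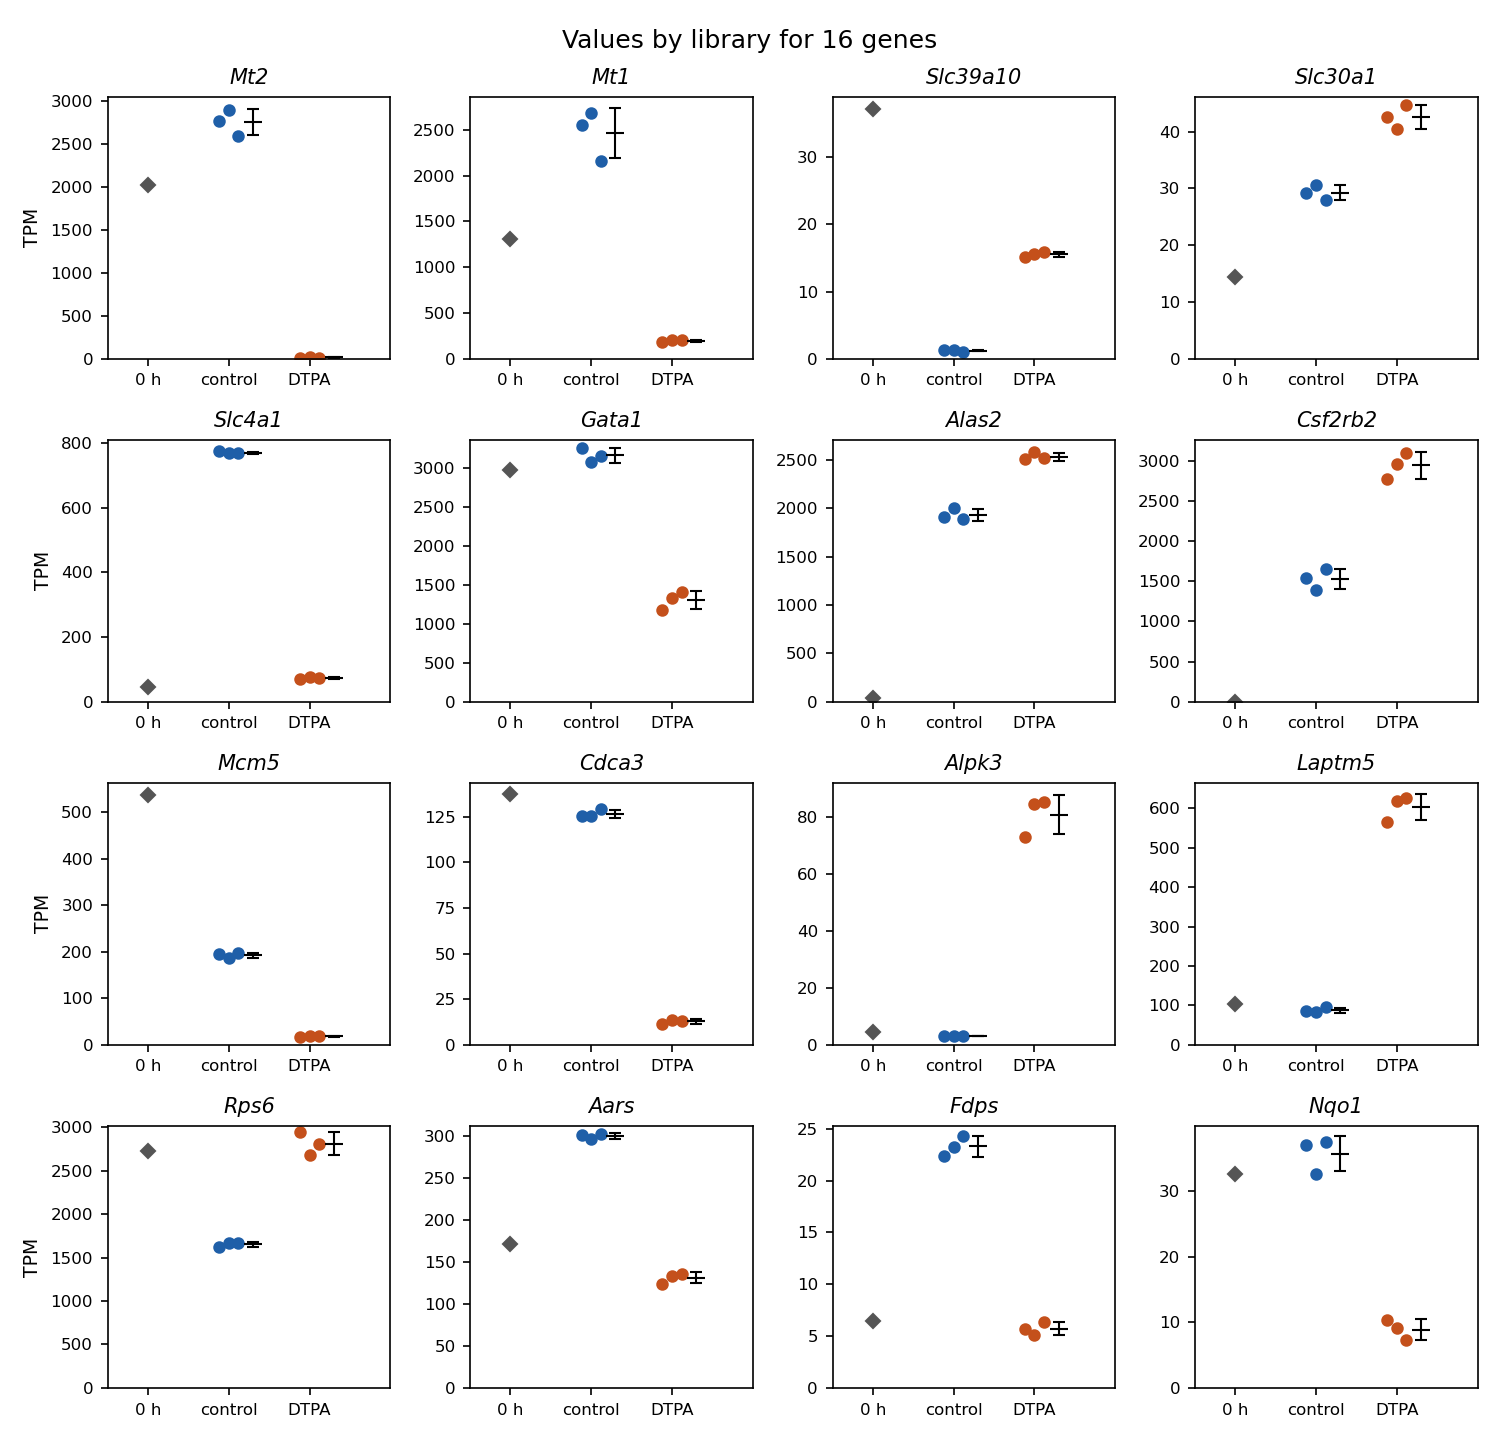
TPM by library for 16 genes (vertical axes in TPM, each from 0): grey diamonds are the single 0 h library, blue points the 3 controls, orange points the 3 DTPA libraries, and the black bars the mean ± SD of each group of 3. In all 16 genes the orange points lie entirely on one side of the blue ones, as for Mt2 (2592 TPM or more in the controls, 13.7 TPM or less under DTPA).

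The 30 largest rises among genes whose higher group averaged 5 TPM or more had log2 fold changes of 2.43 to 6.31. Of these, 22 were protein coding, none belonged to the cell cycle or repair lists, the 0 h value was below both groups in 13 and above both in 3. Embryonic globin genes led. Hbb-bh1, an early embryonic beta-like globin, stood at 50.2, 51.5 and 59.4 TPM in the controls and 4268, 4478 and 4211 TPM under DTPA, and Hbb-y, another embryonic beta-like globin, at 14.8, 14.1 and 15.9 TPM in the controls and 295, 354 and 286 TPM under DTPA. Hba-x, the embryonic zeta-like globin, rose by 3.23 on the log2 scale. Next to the globins stood genes that are better known from other tissues. Alpk3, which encodes a kinase of heart and skeletal muscle, stood at 3.14, 3.11 and 2.97 TPM in the controls and 72.8, 84.3 and 85.1 TPM under DTPA. Mylk3, the cardiac myosin light chain kinase, stood at 10.8, 11.01 and 11.7 TPM in the controls and 88.9, 85.5 and 93.3 TPM under DTPA. All DTPA libraries of Alpk3 and Mylk3 were several times above all controls, and the 0 h values were 4.57 and 62.4 TPM. Gip, the gene of an intestinal hormone, Cpz, a carboxypeptidase gene, and Mgarp, a mitochondrial protein gene, rose by 3.23, 3.17 and 2.96.

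Laptm5, also among the 30, encodes a lysosomal membrane protein of blood cells and stood at 84.8, 82.7 and 94.9 TPM in the controls and 565, 618 and 627 TPM under DTPA. Vav1, which activates Rac downstream of immune receptors, stood at 14.8, 13.4 and 13.2 TPM in the controls and 105.31, 106 and 114 TPM under DTPA. Srgn, encoding serglycin, the core of granule proteoglycans, stood at 35.4, 34.4 and 35.8 TPM in the controls and 231, 246 and 229 TPM under DTPA. In each of the 3 genes the lowest DTPA library was more than 5 times the highest control. Il9r, the interleukin-9 receptor, rose by 2.43, and Mllt3, a component of the super elongation complex, by 2.43 (limma adjusted p = 2.46e-07 and 6.70e-08). Slc43a2, a transporter of branched-chain amino acids, rose from 13.4, 12.1 and 14.04 to 84.8, 96.5 and 94.5 TPM. Gfpt2, which opens the hexosamine pathway, rose from 7.00, 7.82 and 7.47 to 44.7, 49.1 and 46.5 TPM, and Adcy6, an adenylyl cyclase, from 2.33, 1.82 and 1.29 to 12.8, 14.3 and 15.0 TPM. The control and DTPA values of these 3 genes were also far apart. Nxpe2, Scamp5 and Ly6g6f rose by 2.76, 2.73 and 2.60. Among noncoding genes, the long intergenic RNAs 3300005D01Rik and 1700016F12Rik rose from 3.58, 3.85 and 2.36 to 56.4, 59.2 and 57.3 TPM and from 19.8, 16.5 and 21.9 to 152, 148 and 155 TPM. Hbb-bh0, an annotated pseudogene of the beta globin locus, and the microRNA precursor locus Mir7059 were listed at 0 in all controls and at 4.45, 7.97 and 14.03 TPM and 2.43, 4.98 and 11.8 TPM under DTPA. Hist1h2al, annotated as a processed pseudogene, and Platr32 were also low in the controls (2.43, 2.53 and 0 TPM and 0, 0 and 1.30 TPM), and the 4 remaining genes are unnamed predicted ones. Exons of Slc43a2 and Hist1h2al overlap those of an opposite-strand gene.

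GATA sites (AGATAA or TGATAA, either strand) were found in 9 of the 15 largest rises that have exactly 1 RefSeq window: 3300005D01Rik, Cpz, Gip, Gm6093, Hba-x, Hbb-y, Il9r, Ly6g6f and Mgarp. By size of change, 45.2% of the 31 genes at least 4-fold higher and 23.1% of the 186 at least 2-fold higher held a site, against 9.54% of all 6142 tested genes with 1 window and 9.38% of the 96 genes at least 4-fold lower. The windows of the higher genes held fewer CpG dinucleotides, with a mean of 10.6 at 4-fold and 15.0 at 2-fold, against 22.8 over all tested. Over all 22862 genes with 1 window, tested or not, the mean was 12.2 and 19.4% held a GATA site, near the 23.1% at 2-fold. The part of CpG content in these shares was not tested. The windows of Hbb-y (chr7:103853158-103853457, minus strand) and 3300005D01Rik (chr17:5798407-5798706, plus strand) are shown as examples, with the sites in capitals; TTATCA is a site on the other strand.
Hbb-y: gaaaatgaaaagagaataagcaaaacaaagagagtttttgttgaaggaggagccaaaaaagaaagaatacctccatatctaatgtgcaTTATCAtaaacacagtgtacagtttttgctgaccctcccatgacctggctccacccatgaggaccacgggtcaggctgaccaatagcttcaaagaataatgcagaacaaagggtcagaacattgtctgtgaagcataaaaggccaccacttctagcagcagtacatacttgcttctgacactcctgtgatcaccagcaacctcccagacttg
3300005D01Rik: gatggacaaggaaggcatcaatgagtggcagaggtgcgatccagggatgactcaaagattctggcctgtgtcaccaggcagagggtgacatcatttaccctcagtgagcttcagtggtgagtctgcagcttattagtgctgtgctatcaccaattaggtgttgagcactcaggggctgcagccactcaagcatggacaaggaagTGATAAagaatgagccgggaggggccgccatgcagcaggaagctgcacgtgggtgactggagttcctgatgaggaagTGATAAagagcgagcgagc
The site of Hbb-y lies at positions -162 to -157 and those of 3300005D01Rik at -46 to -41 and 32 to 37. A match is a string of letters only, and binding was not measured in these libraries.

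**Figure D3:**
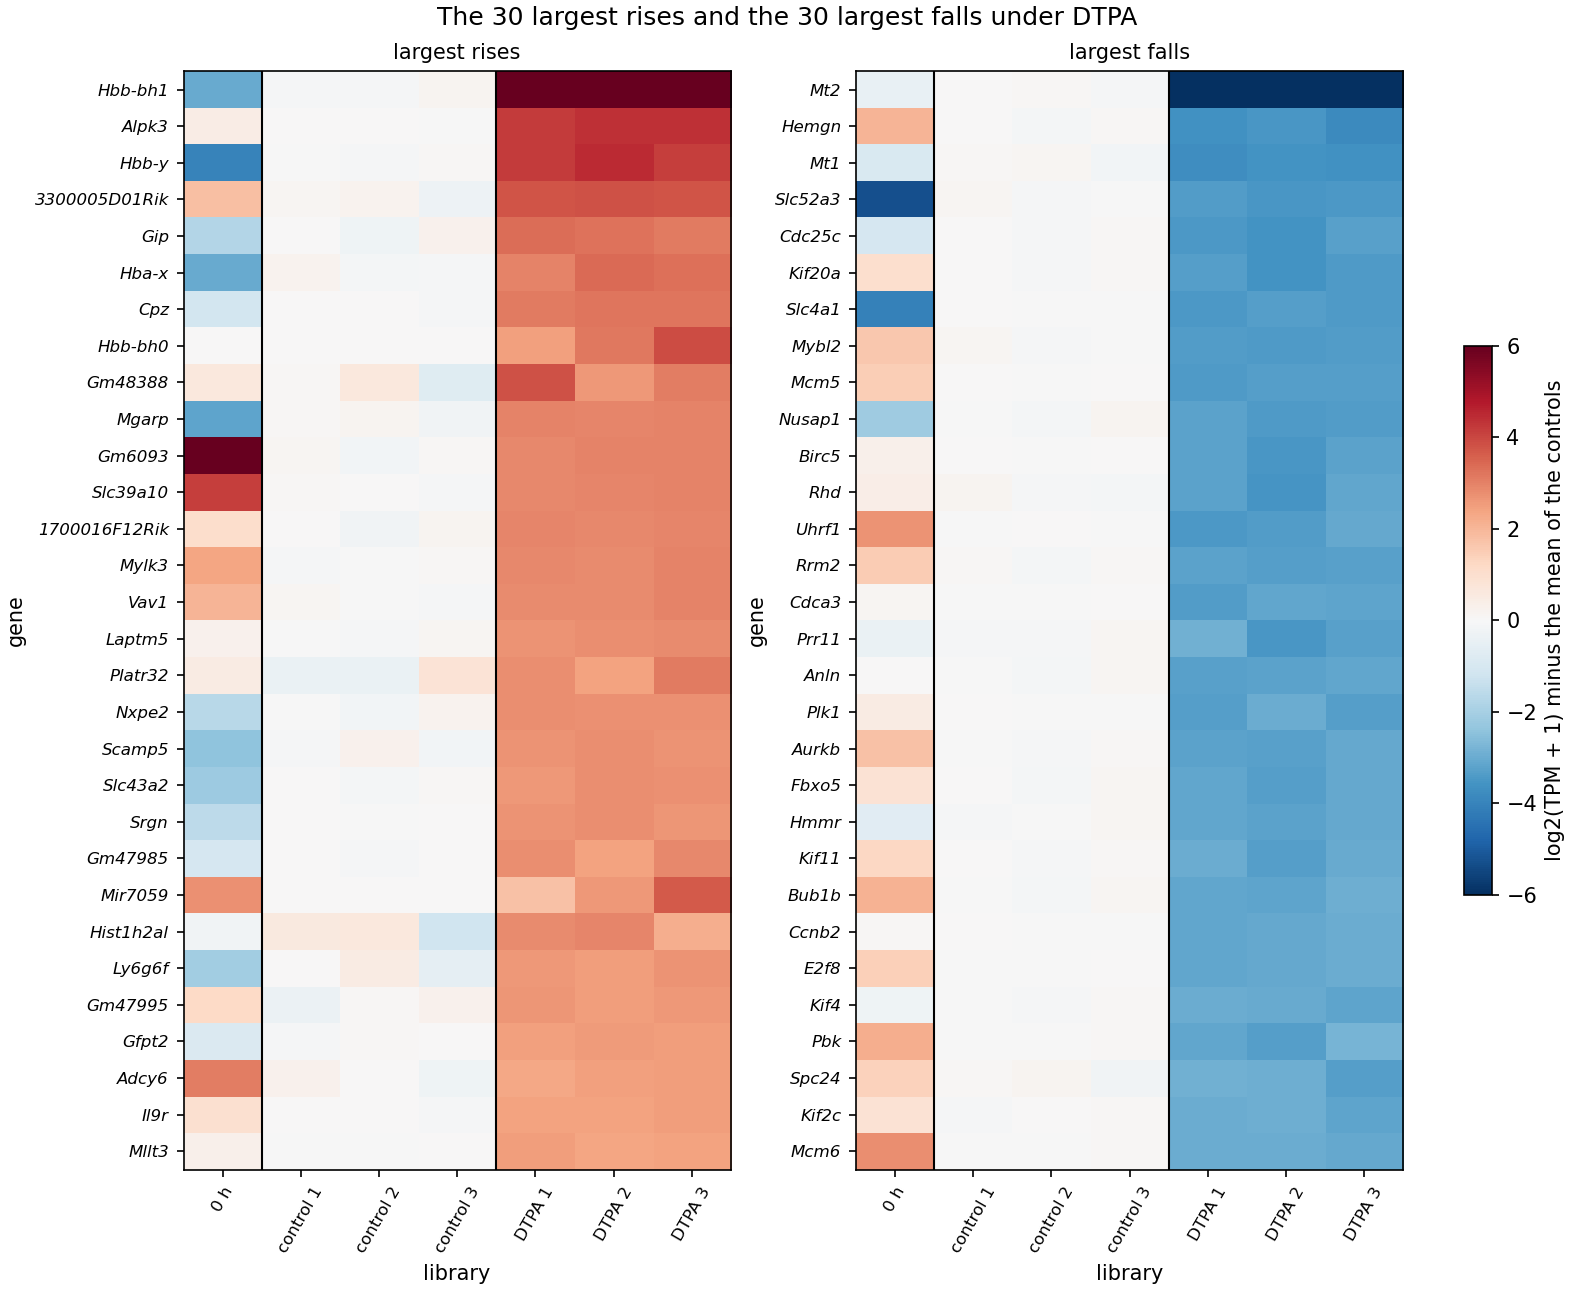
Rows are the 30 largest rises (left) and falls (right), columns the 7 libraries; color is log2(TPM + 1) minus the mean of the 3 controls, on a scale that ends at 6 in either direction, so Hbb-bh1 and Mt2 are beyond it. The 3 DTPA columns lie on the same side of the controls in each gene, and the single 0 h column is above both groups in 3 of the rises and 20 of the falls.

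The 30 largest falls ran from -7.66 to -3.01 on the log2 scale. All 30 are protein coding, 20 of them belong to the cell cycle and repair lists, and the 0 h value was above both 24 h groups in 20 and below both in 2. Beside Mt1 and Mt2, 4 erythroid or transport genes stood among them. Hemgn, the gene of hemogen, a nuclear protein of erythroid cells, stood at 32.8, 30.3 and 34.3 TPM in the controls and 1.71, 1.99 and 1.33 TPM under DTPA. Slc52a3, a riboflavin transporter, stood at 40.3, 35.3 and 36.3 TPM in the controls and 2.70, 2.44 and 2.46 TPM under DTPA and was listed at 0 at 0 h. Slc4a1, the band 3 anion exchanger of the red cell membrane, stood at 775, 768 and 768 TPM in the controls and 70.7, 76.1 and 72.3 TPM under DTPA, and Rhd, the gene of the Rhesus D antigen, at 22.2, 19.2 and 18.6 TPM in the controls and 1.26, 0.83 and 1.40 TPM under DTPA. In these 4 genes every DTPA value lay under 10% of every control value.

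Genes of DNA replication and division were lower almost without exception. The 8 lists from origin licensing to DNA repair and the E2F factors hold 225 distinct genes tested; 209 were lower, 7 higher and 9 not called, and 148 were at least 2-fold lower, 25.5% of all genes so lowered. The median log2 fold change of the 225 was -1.43, against -0.09 over all genes tested. The 7 higher ones, singled out after their values were seen, were Zwint, Cdc25b, E2f3, Rb1, Fanca, Hprt and Prps2. Of these only E2f3 (1.05) reached 2-fold. The calls of the nucleotide synthesis genes Hprt (0.15) and Prps2 (0.35) were unstable: no gene of that list was called higher without control replicate 1 or DTPA replicate 3, and 1 gene was without each of the other 4 libraries.

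Origin licensing and firing genes (25 lower and 0 higher of 26, median -1.39) include the MCM helicase that unwinds replication origins. Mcm5 stood at 195, 186 and 197 TPM in the controls and 17.5, 18.8 and 18.3 TPM under DTPA, Mcm6 at 69.1, 68.6 and 73.1 TPM in the controls and 8.06, 8.06 and 7.46 TPM under DTPA and Mcm3 at 183, 179.9 and 183 TPM in the controls and 29.2, 26.6 and 31.2 TPM under DTPA. The 3 subunits were 10.6-fold, 8.94-fold and 6.28-fold lower in mean TPM, although they belong to 1 complex, and each had been higher still at 0 h (538, 490.4 and 575 TPM). Ticrr, which helps load CDC45 at origins, fell by 2.74 on the log2 scale. Polymerase and fork genes (29 lower and 0 higher of 30, median -1.28) included the DNA ligase gene Lig1 at 151, 158 and 161 TPM in the controls and 24.3, 25.4 and 26.7 TPM under DTPA, Clspn, encoding the checkpoint adaptor claspin, at -2.23, the polymerase delta subunit gene Pold1 at -2.10 and the histone chaperone gene Asf1b at -1.90. Nucleotide synthesis genes (24 lower and 2 higher of 27, median -0.76) fell most in the steps that make deoxynucleotides. Rrm2, the regulated subunit of ribonucleotide reductase, stood at 142, 126 and 141 TPM in the controls and 13.7, 13.04 and 13.3 TPM under DTPA, and its partner Rrm1 at 98.5, 97.5 and 104.86 TPM in the controls and 29.0, 26.1 and 28.2 TPM under DTPA. Thymidylate synthase Tyms and thymidine kinase Tk1 fell (log2 fold changes -1.69 and -1.52). Exons of Ticrr, Lig1 and Tk1 overlap those of an opposite-strand gene.

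Mitotic genes fell further than replication genes in their medians. Mitotic kinase, cyclin and checkpoint genes (33 lower and 1 higher of 34) had a median of -2.51, and 30 of them were at least 2-fold lower. Plk1, the polo-like kinase of mitotic entry, stood at 135, 134 and 135 TPM in the controls and 12.9, 16.03 and 12.9 TPM under DTPA. Ccnb2, a B-type cyclin, stood at 163, 155 and 157 TPM in the controls and 17.3, 18.03 and 19.1 TPM under DTPA, and Birc5, encoding survivin of the chromosomal passenger complex, at 126, 121 and 124 TPM in the controls and 12.4, 10.2 and 12.4 TPM under DTPA. In each of these the 2 groups lay far apart, with close values within each. Mybl2, a transcription factor that activates G2 and mitotic genes, and Cdc25c, a phosphatase that activates CDK1, fell (log2 fold changes -3.37 and -3.43). Aurkb, Bub1b and Fbxo5, encoding Aurora B, the checkpoint kinase BUBR1 and the inhibitor EMI1 of the anaphase-promoting complex, fell (log2 fold changes -3.18, -3.07 and -3.16), and the kinase gene Pbk, which is outside the list, by 3.05. All 26 kinesin, spindle and cytokinesis genes fell, with a median of -2.69, from -3.43 for Kif20a to -0.23. Nusap1, a spindle microtubule protein, stood at 215, 200.0 and 246 TPM in the controls and 23.1, 20.1 and 20.5 TPM under DTPA, and Anln, encoding anillin of the contractile ring, at 45.8, 43.0 and 49.9 TPM in the controls and 3.91, 4.16 and 4.47 TPM under DTPA. The motor genes Kif11, Kif4 and Kif2c fell (log2 fold changes -3.11, -3.06 and -3.01), and Hmmr by 3.14. Kinetochore, condensin and cohesin genes (34 lower and 1 higher of 35, median -1.96) included Nuf2 and Spc24 of the NDC80 complex (-2.96 and -3.03), Ndc80 (-2.47) and Cenpf (-2.89). Iqgap3, a scaffold protein gene, was the 1 gene at 5 TPM or more in every control (5.58, 5.57 and 5.62 TPM) and under 0.5 TPM in every DTPA library (0.39, 0.10 and 0.45 TPM). Exons of Kif20a, Nusap1 and Kif4 overlap those of an opposite-strand gene.

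Genes that repair and regulate replication followed. Of 30 genes of homologous recombination, the Fanconi pathway and mismatch repair, 25 fell and 1 rose, with a median of -1.13 (with a filter of 5 TPM, 14 fell and 1 rose). Brca1 stood at 36.6, 35.2 and 39.0 TPM in the controls and 6.59, 6.73 and 7.13 TPM under DTPA, so that every DTPA library lay below every control. Fancd2 and Rad54l fell (log2 fold changes -2.01 and -2.09). Among 17 E2F and pocket protein genes, 13 fell and 2 rose, with a median of -0.48. E2f8, a repressor, and E2f2, an activator, stood at 37.5, 36.8 and 38.4 TPM in the controls and 3.40, 3.53 and 3.91 TPM under DTPA and at 33.9, 32.2 and 32.9 TPM in the controls and 4.79, 4.42 and 4.76 TPM under DTPA; both were more than 6-fold lower in every comparison of a DTPA with a control library. E2f1 and Rbl1, the second encoding p107, fell (log2 fold changes -1.13 and -2.14). The G1 cyclins, CDKs and their inhibitors were mixed, with 6 of 19 higher, 11 lower and a median of -0.45. Ccne1, the cyclin of S phase entry, fell from 314, 314 and 321 to 117, 113 and 118 TPM. Cdk2, Cdc25a and the CDK4 inhibitor gene Cdkn2c fell (log2 fold changes -0.87, -0.91 and -0.97). Exons of Rad54l overlap those of an opposite-strand gene.

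Motifs of 2 cell cycle regulators were counted in the promoter windows, as a description without a test. The CHR element (TTTGAA, either strand), which binds the DREAM and MuvB complexes, was in 52.1% of the 96 windows of genes at least 4-fold lower and in 31.6% of the 326 at least 2-fold lower, against 11.8% of all 6142 and 8.06% of the 186 at least 2-fold higher. Over all 22862 genes with 1 window, tested or not, it was in 18.5%. In the kinesin and spindle list the share was 76.2% of 21 windows, and in the mitotic kinase list 50.0% of 26. E2F sites (TTTCCCGC, TTTGGCGC or TTTCGCGC, either strand) were in 53.3% of the 15 windows of the licensing list, 11.7% of the genes at least 2-fold lower and 4.49% of all. Among the 22 largest falls with 1 window, 12 held a CHR element (Anln, Bub1b, Ccnb2, Cdca3, E2f8, Fbxo5, Hmmr, Kif11, Kif2c, Kif4, Plk1 and Prr11) and 2 an E2F site (Mcm5 and Mcm6). These 2 and a pair of CHR windows are shown with the matches in capitals: Mcm5 (chr8:75109259-75109558, plus strand), Mcm6 (chr1:128359656-128359955, minus strand), Cdca3 (chr6:124829926-124830225, plus strand) and Prr11 (chr11:87108665-87108964, minus strand).
Mcm5: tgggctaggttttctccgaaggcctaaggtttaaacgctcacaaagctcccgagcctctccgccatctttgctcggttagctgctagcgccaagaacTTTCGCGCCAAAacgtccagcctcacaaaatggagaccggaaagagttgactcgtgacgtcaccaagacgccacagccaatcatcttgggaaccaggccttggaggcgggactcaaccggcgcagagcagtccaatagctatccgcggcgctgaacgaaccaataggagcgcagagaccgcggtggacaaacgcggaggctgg
Mcm6: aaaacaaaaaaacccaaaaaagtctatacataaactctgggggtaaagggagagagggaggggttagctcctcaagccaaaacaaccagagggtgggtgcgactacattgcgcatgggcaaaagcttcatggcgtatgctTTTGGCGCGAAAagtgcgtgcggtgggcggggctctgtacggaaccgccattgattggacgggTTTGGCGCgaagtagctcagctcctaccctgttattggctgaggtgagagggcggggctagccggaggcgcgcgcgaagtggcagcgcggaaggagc
Cdca3: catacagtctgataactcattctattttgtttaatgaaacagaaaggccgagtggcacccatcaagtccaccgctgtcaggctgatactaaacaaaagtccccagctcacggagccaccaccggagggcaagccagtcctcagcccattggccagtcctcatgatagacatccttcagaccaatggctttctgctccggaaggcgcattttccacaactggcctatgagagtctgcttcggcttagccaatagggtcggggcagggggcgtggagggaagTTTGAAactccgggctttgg
Prr11: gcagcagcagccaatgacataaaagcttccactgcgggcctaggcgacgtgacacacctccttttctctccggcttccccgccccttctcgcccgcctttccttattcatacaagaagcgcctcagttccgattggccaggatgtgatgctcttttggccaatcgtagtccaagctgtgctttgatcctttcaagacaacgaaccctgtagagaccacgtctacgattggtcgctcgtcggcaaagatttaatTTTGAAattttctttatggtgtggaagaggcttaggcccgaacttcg
In Mcm5 the 2 matches, TTTCGCGC and TTTGGCGC on opposite strands, overlap in 1 place at -153 to -142. In Mcm6, 2 matches overlap at -110 to -99 and another lies at -47 to -40. The CHR element lies at 31 to 36 in Cdca3 and at 4 to 9 in Prr11, in both just after the annotated start. Cdca3, a mitotic entry gene, and Prr11 stood at 126, 125 and 129 TPM in the controls and 11.51, 13.6 and 13.3 TPM under DTPA and at 42.6, 42.1 and 48.1 TPM in the controls and 5.10, 3.07 and 3.79 TPM under DTPA.

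**Figure D4:**
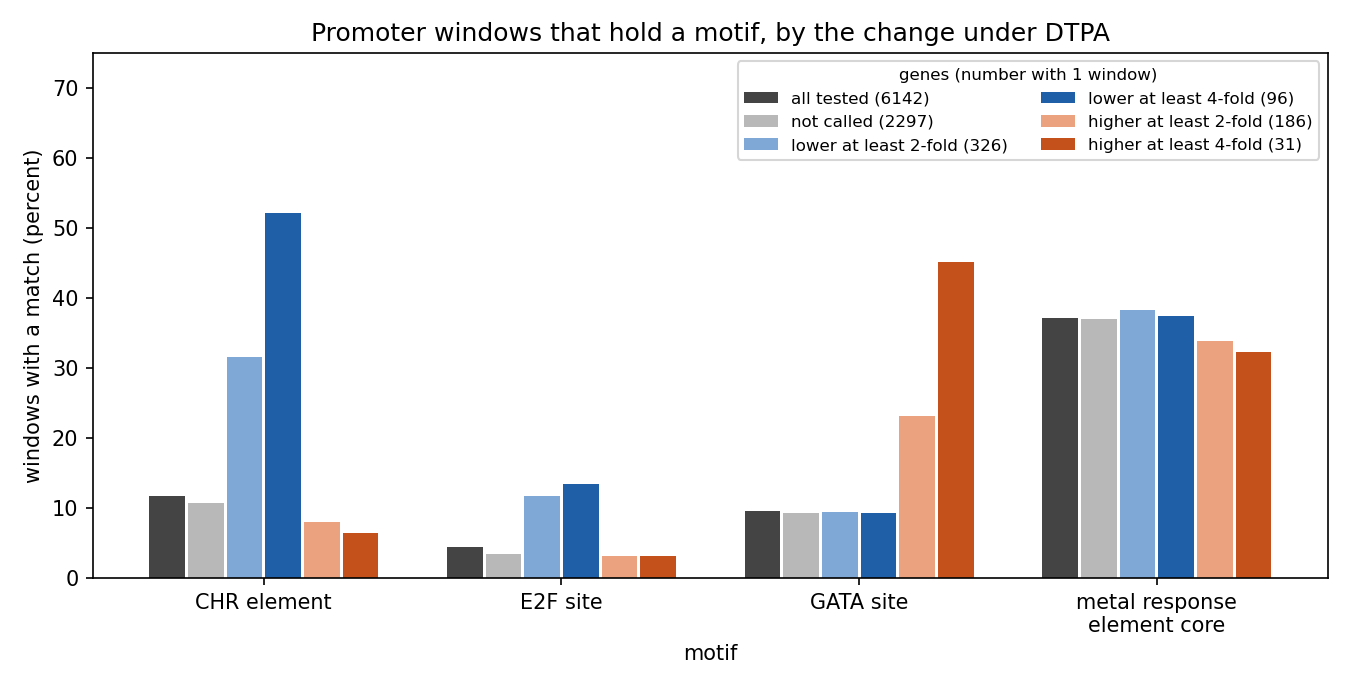
Bars give the percent of genes with exactly 1 RefSeq promoter window whose window holds each motif; colors are classes of change under DTPA, with the number of windows in brackets. The CHR element is most frequent in genes at least 4-fold lower (52.1%) and the GATA site in genes at least 4-fold higher (45.2%), while the metal response element core lies between 32.3% and 38.3% in all classes.

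Late erythroid genes split. Of 35 genes of maturation and the red cell membrane, 23 fell and 8 rose, with a median of -0.22, and 8 of the falls but only 1 of the rises reached 2-fold. Beside Hemgn, Slc4a1 and Rhd, the dematin gene Dmtn, which bundles actin under the membrane, stood at 101, 98.8 and 96.9 TPM in the controls and 18.9, 20.4 and 20.1 TPM under DTPA. These DTPA values lay below all controls but above the 0 h value of 1.74 TPM. The members that went the other way, singled out after their values were seen, included Kel, the Kell blood group gene, at 12.5, 11.4 and 12.9 TPM in the controls and 25.3, 27.6 and 29.3 TPM under DTPA, and Ube2o, a ubiquitin enzyme that clears ribosomes from reticulocytes, at 89.7, 86.1 and 83.1 TPM in the controls and 155, 181 and 184 TPM under DTPA. The list as a whole held 10710 to 10760 TPM in a control, 8852 to 9149 TPM in a DTPA library and 2898 TPM at 0 h. GATA sites were in 50.0% of the 20 windows of this list. Among the 10 globin genes tested, 7 rose and 3 fell, with a median of 2.13. One of the rises, Hbb-bh0, was at 0 in all controls and passed the filter through its DTPA libraries alone. With a filter of 5 TPM, 5 of 8 rose and 3 fell, with a median of 1.3. The alpha globin copies of the adult, Hba-a1 and Hba-a2, fell (log2 fold changes -0.33 and -1.13), and the read split between them and between Hbb-bs and Hbb-bt is uncertain: Hbb-bt, which rose by 2.12, stood at 12456, 16392 and 4380.4 TPM under DTPA.

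Of 24 heme genes, 13 fell and 5 rose (12 and 8 with median-of-ratios factors), with a median of -0.20. Alad, which catalyses an early step of heme synthesis, stood at 1035, 1033 and 980.2 TPM in the controls and 293, 336 and 321 TPM under DTPA. Uros, the enzyme of a later step, stood at 55.1, 54.5 and 56.8 TPM in the controls and 117, 115 and 118 TPM under DTPA. The transcript of the earlier step was thus lower and that of the later step higher under DTPA, each with groups that did not overlap. Alas2 rose (log2 fold change 0.39, adjusted p = 1.12e-04), and Slc25a39, a mitochondrial glutathione carrier, fell by 1.38. Of 19 iron genes, 4 rose and 7 fell (57.9% called), with a median of -0.11. These shares are close to those over all genes tested (21.7% higher, 36.4% lower and 58.1% called, median -0.09), so the count is no result about the list. With median-of-ratios factors 7 rose and 4 fell, and after quantile normalization 7 rose and 5 fell with a median of 0.06. Slc25a37, encoding the mitochondrial iron importer mitoferrin-1, stood at 203, 200.2 and 212 TPM in the controls and 109, 118 and 121 TPM under DTPA. Tfr2, the second transferrin receptor, rose by 0.60 and Pcbp1, an iron chaperone, fell by 0.44; its exons overlap those of a gene on the other strand.

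Among 32 erythroid transcription factors and cofactors, 12 rose and 10 fell, with a median of 0.04. The called share was 68.8%, against 58.1% over all genes tested (21.7% higher, 36.4% lower, median -0.09). Gata1 stood at 3261, 3075 and 3156 TPM in the controls and 1177, 1329 and 1410.0 TPM under DTPA. In this line such reads can come from the introduced fusion as well as from the disrupted gene, so this value is not a measure of 1 promoter. Gfi1b, which encodes a transcriptional repressor that acts within the erythroid and platelet lineages, stood at 514, 508 and 508 TPM in the controls and 972, 1153 and 1106 TPM under DTPA, and Cited2, a CBP and p300 partner, rose by 1.25. Of 23 genes of erythropoietin and cytokine signalling, 13 rose and 7 fell, with a median of 0.33. The receptors parted. Epor, the erythropoietin receptor, fell from 147, 146 and 126 to 68.5, 82.2 and 83.8 TPM. Kit, the receptor of Kit ligand, rose from 7.24, 7.35 and 7.64 to 31.9, 32.0 and 32.4 TPM, against 138 TPM at 0 h. Csf2rb2, the interleukin-3 receptor beta chain of mice, stood at 1537, 1395 and 1653 TPM in the controls and 2771, 2959 and 3101 TPM under DTPA, and at 1.39 TPM at 0 h. Its near-identical neighbour Csf2rb had a log2 fold change of 0.82, and the split of reads between them is uncertain. Erfe, the hormone erythroferrone, a target of this pathway, stood at 44.6, 44.1 and 41.6 TPM in the controls and 4.84, 5.06 and 6.68 TPM under DTPA. Stat5a, a transcription factor that erythropoietin activates, rose by 0.94. Exons of Erfe and Stat5a overlap those of an opposite-strand gene.

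Most tested genes of earlier progenitors and of platelets were higher. Of 20 progenitor genes, 13 reached the filter, which a gene can pass through its DTPA libraries alone. Of these 13, 10 rose and 3 fell, with a median of 0.98. Without a filter on low values 10 of 15 rose and 2 fell (median 0.64). With a filter of 5 TPM 8 of 10 rose and 2 fell (median 0.98), and a pseudocount of 5 TPM gave a median of 0.48. Spi1, the myeloid and lymphoid factor PU.1, stood at 14.2, 14.2 and 12.2 TPM in the controls and 38.7, 37.4 and 39.7 TPM under DTPA, and Cd44, an adhesion receptor lost during maturation, at 2.82, 2.91 and 4.14 TPM in the controls and 9.13, 8.58 and 7.74 TPM under DTPA. Hhex rose by 1.24. Their 0 h values were 13.3, 66.2 and 41.6 TPM. Of 20 megakaryocyte and platelet markers only 7 reached the filter, which a gene can pass through its DTPA libraries alone, and these 7 rose. Itgb3, the platelet integrin beta 3, stood at 2.06, 2.06 and 2.41 TPM in the controls and 15.2, 14.8 and 16.1 TPM under DTPA, Gp1ba, a subunit of the von Willebrand factor receptor, at 8.23, 5.42 and 7.87 TPM in the controls and 26.4, 24.0 and 29.0 TPM under DTPA, and Nbeal2, a gene of platelet granule formation, at 3.74, 3.88 and 3.51 TPM in the controls and 11.2, 13.96 and 14.8 TPM under DTPA. The defining markers Ppbp and Vwf were at 0, Itga2b was at 0.63 to 0.72 TPM in the controls and 0.89 to 1.05 TPM under DTPA, and Pf4 reached at most 1.39 TPM. Summed over the 20 markers, the level ranged from 149.2 to 155.5 TPM over the controls and from 274.0 to 286.7 TPM over the DTPA libraries, and was 117.4 TPM at 0 h; the part of a few cells of that lineage in these values was not tested. Among 20 mast cell and myeloid markers 2 were tested, 1 higher and 1 lower, with sums of 3.41 to 3.86 TPM in the controls and 4.14 to 5.93 TPM under DTPA. Of 12 lymphoid markers Cd79a alone was tested, at 0.23, 0.35 and 1.06 TPM in the controls and 2.56, 2.82 and 2.58 TPM under DTPA; of 12 fibroblast, endothelial and epithelial markers none was, and their sum stayed at or below 0.25 TPM.

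**Figure D5:**
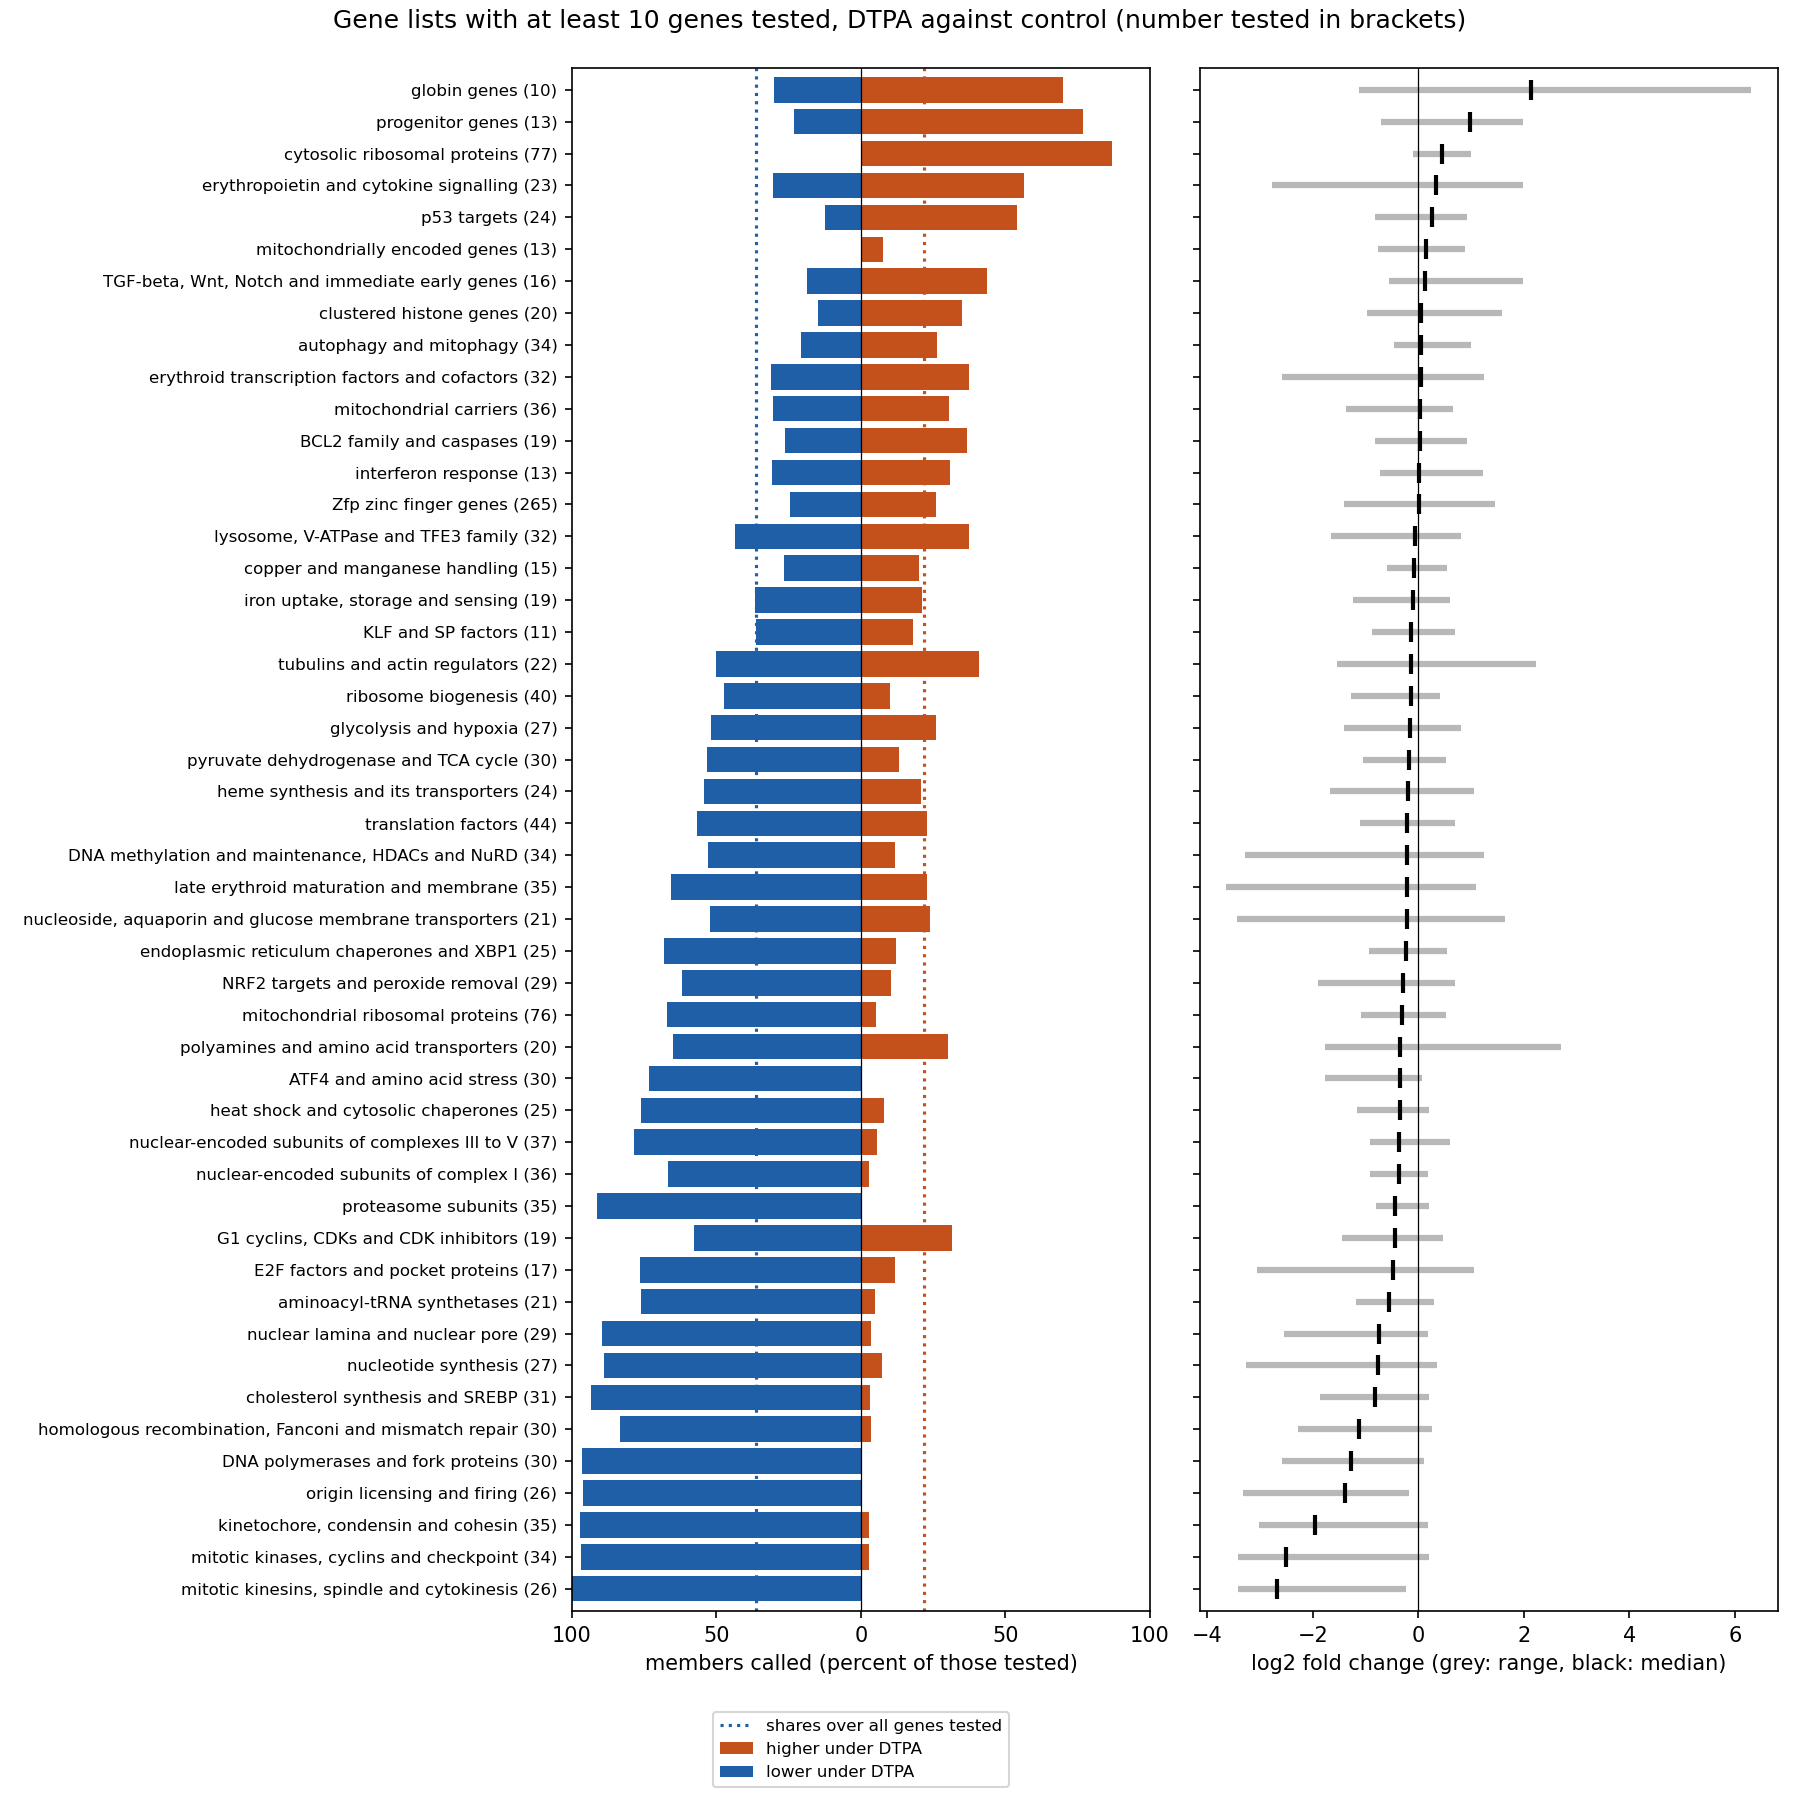
Left, percent of the tested members of each list that were called higher (orange) or lower (blue) under DTPA, with dotted lines at the shares over all genes tested (21.7% and 36.4%); right, the range (grey) and median (black) of the log2 fold changes. Lists with at least 10 tested genes are shown in order of their medians, from the globin genes (median 2.13) to the mitotic kinesin list (-2.69). The globin median was 1.3 with a filter of 5 TPM.

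The machinery of protein synthesis did not move as 1 block. Of 77 cytosolic ribosomal protein genes, 67 were higher and 0 lower (10 not called), with a median of 0.44; after quantile normalization 62 were higher and 1 lower, with a median of 0.41. Rps6 stood at 1619, 1663 and 1671 TPM in the controls and 2948, 2679.7 and 2804 TPM under DTPA, with no overlap of the groups. Rpl13a and Rps15a rose by 0.73 and 0.75. The summed TPM of the list ranged from 73050 to 78250 over the controls and from 99990 to 103700 over the DTPA libraries, and was 122100 at 0 h. These genes have many processed pseudogenes, so that the reads assigned to each are uncertain. The elongation factor genes of the same abundance class, Eef1a1 and Eef2, rose as given above, and 10 of 44 translation factor genes rose while 25 fell, with a median of -0.21. With median-of-ratios factors 11 rose and 20 fell (median -0.11), and after quantile normalization 10 rose and 17 fell (median -0.07). Eif2b3, a subunit of the exchange factor for eIF2, stood at 8.45, 7.28 and 8.13 TPM in the controls and 3.32, 3.33 and 2.84 TPM under DTPA, and Eif5a, the factor that carries hypusine, at 356, 361 and 360.0 TPM in the controls and 204, 218 and 227 TPM under DTPA. Eef2k, the kinase that inhibits eEF2, and Eif1ax fell (log2 fold changes -1.06 and -0.74).

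The genes that charge tRNAs were mostly lower. Of 21 aminoacyl-tRNA synthetase genes, 16 fell and 1 rose, with a median of -0.56. Aars, the alanyl-tRNA synthetase, stood at 302, 297 and 303 TPM in the controls and 124, 133 and 136 TPM under DTPA, and Vars, the valyl-tRNA synthetase, at 129.9, 126 and 120.2 TPM in the controls and 59.0, 58.0 and 60.7 TPM under DTPA. Farsa and Yars fell (log2 fold changes -0.87 and -0.77). Of 40 ribosome biogenesis genes, 19 fell and 4 rose, with a median of -0.15 and a called share of 57.5%, close to the 58.1% over all genes tested. Counts of 15 and 7 were found with median-of-ratios factors and 14 and 8 after quantile normalization. In this list 1 rose without DTPA replicate 3 (17 fell) and 2 rose without control replicate 2 (17 fell) or DTPA replicate 2 (18 fell). Ubtf, the factor that opens ribosomal DNA for RNA polymerase I, stood at 63.6, 65.9 and 65.1 TPM in the controls and 26.1, 25.7 and 26.6 TPM under DTPA. Dkc1, encoding dyskerin, and the nucleolar genes Nop56 and Nolc1 fell (log2 fold changes -0.86, -0.72 and -0.72). Of 76 mitochondrial ribosomal protein genes, 51 fell and 4 rose, with a median of -0.32; Mrpl55 was lowest, at 179.7, 164 and 168 TPM in the controls and 77.4, 86.6 and 75.4 TPM under DTPA, followed by Mrpl13, Mrpl41 and Mrpl23 (-0.74, -0.73 and -0.71). The ribosomal proteins of the cytosol and of mitochondria thus moved in opposite directions in these libraries. Exons of Yars, Dkc1, Nop56 and Mrpl13 overlap those of an opposite-strand gene.

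Protein folding, degradation and amino acid stress genes were mostly lower. Of 35 proteasome subunits, 32 fell and none rose, with a median of -0.45 and a narrow range from -0.80 to 0.20. Psmc4, an ATPase of the 19S cap, stood at 285, 293 and 287 TPM in the controls and 171, 174 and 182 TPM under DTPA, and Psmd9, an assembly chaperone of the proteasome, at 66.5, 66.9 and 60.1 TPM in the controls and 34.9, 37.3 and 37.3 TPM under DTPA. Psmc5 and Psmd5 fell (log2 fold changes -0.69 and -0.66). Of 25 heat shock and cytosolic chaperone genes, 19 fell and 2 rose, with a median of -0.35. Stip1, which hands clients from HSP70 to HSP90, stood at 331, 339 and 339 TPM in the controls and 147, 152 and 151 TPM under DTPA, and Hsph1, Dnajb1 and Fkbp4 fell (log2 fold changes -0.98, -0.79 and -0.78). Of 25 endoplasmic reticulum genes, 17 fell and 3 rose (10 and 4 after quantile normalization), with a median of -0.24. Xbp1, the transcription factor of the unfolded protein response, stood at 122, 125 and 129.7 TPM in the controls and 68.8, 68.5 and 72.9 TPM under DTPA, while Dnajb9, a chaperone of the same compartment, stood at 69.5, 73.8 and 73.8 TPM in the controls and 113, 104 and 101 TPM under DTPA and rose. Canx and P4hb fell (log2 fold changes -0.93 and -0.59). Of 30 genes of ATF4 and amino acid stress, 22 fell and none rose (17 and 3 after quantile normalization), with a median of -0.34. Slc1a5, a glutamine transporter, stood at 37.3, 33.9 and 38.0 TPM in the controls and 10.3, 9.61 and 9.91 TPM under DTPA, and Shmt2, the serine hydroxymethyltransferase of mitochondria, at 181, 171 and 179 TPM in the controls and 59.1, 64.4 and 70.9 TPM under DTPA. Its partner Mthfd2 in mitochondrial folate metabolism fell by 0.92. Exons of Shmt2 overlap those of Ndufa4l2 on the other strand.

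Antioxidant genes were also lower on the whole. Of 29 NRF2 target and peroxide-removing genes, 18 fell and 3 rose, with a median of -0.29. Nqo1, a quinone reductase, stood at 37.0, 32.7 and 37.6 TPM in the controls and 10.3, 9.08 and 7.26 TPM under DTPA. Txnrd1, the cytosolic thioredoxin reductase, stood at 116, 113 and 114 TPM in the controls and 40.3, 39.3 and 41.6 TPM under DTPA, and its substrate thioredoxin, Txn1, at 347, 374 and 339.7 TPM in the controls and 190.2, 191 and 193 TPM under DTPA. Gclc, which catalyses the limiting step of glutathione synthesis, fell by 1.11. The 3 genes with values given here were lower in every DTPA library than in any control. The p53 targets had more rises than falls: of 24 tested, 13 rose and 3 fell, with a median of 0.25, and none reached 2-fold. The called share was 66.7%, against 58.1% over all genes tested (21.7% higher, 36.4% lower). Bbc3, the proapoptotic gene also called Puma, stood at 98.8, 101 and 74.4 TPM in the controls and 173, 171 and 175 TPM under DTPA, Zmat3 at 22.9, 23.4 and 23.4 TPM in the controls and 40.1, 42.4 and 42.9 TPM under DTPA and Eda2r at 11.53, 10.3 and 11.9 TPM in the controls and 21.9, 20.6 and 20.2 TPM under DTPA. Ddb2, a nucleotide excision repair gene, fell from 7.82, 5.26 and 7.82 to 3.57, 3.11 and 3.71 TPM; its exons overlap those of Acp2 on the other strand. Cdkn1a, the CDK inhibitor p21 and the best-known target, had a log2 fold change of 0.36, at 209, 205 and 190.0 TPM in the controls and 242, 263 and 268 TPM under DTPA. In the BCL2 and caspase list 7 of 19 rose and 5 fell (63.2% called, against 58.1% over all genes tested). The 2 executors of mitochondrial permeabilization went apart: Bax stood at 399.9, 404 and 369.6 TPM in the controls and 524, 525 and 527 TPM under DTPA and Bak1 at 171, 171 and 163 TPM in the controls and 90.1, 96.4 and 98.6 TPM under DTPA. Casp2 fell by 0.67.

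Cholesterol synthesis was the metabolic list with the most uniform fall. Of 31 genes, 29 fell and 1 rose, with a median of -0.82, and 9 were at least 2-fold lower. Fdps, farnesyl diphosphate synthase, stood at 22.3, 23.3 and 24.3 TPM in the controls and 5.73, 5.09 and 6.32 TPM under DTPA. Sqle, squalene epoxidase, stood at 218, 223 and 226 TPM in the controls and 97.4, 93.7 and 97.5 TPM under DTPA, and Mvk, mevalonate kinase, at 181, 187 and 158 TPM in the controls and 69.4, 74.4 and 77.4 TPM under DTPA. Hsd17b7, a later step, fell by 1.29. The list summed to 6589 to 6630 TPM in the controls and 3972 to 4140 TPM under DTPA. CCAAT boxes (CCAAT, either strand) were in 88.2% of the 17 windows of this list, against 41.4% of all tested. They were also frequent in other lowered genes. The shares were 57.4% of genes at least 2-fold lower, 66.7% of those at least 4-fold lower and 76.9% of the mitotic kinase list. Of 27 glycolysis and hypoxia genes, 14 fell and 7 rose, with a median of -0.16. The called share was 77.8%, against 58.1% over all genes tested. With median-of-ratios factors 11 fell and 8 rose (median -0.06), and after quantile normalization 11 fell and 9 rose (median -0.04). Pklr, the red cell pyruvate kinase, stood at 218, 209 and 227 TPM in the controls and 87.6, 87.9 and 94.2 TPM under DTPA, and Slc16a1, a lactate and pyruvate transporter, at 101, 99.4 and 102 TPM in the controls and 39.1, 36.0 and 36.1 TPM under DTPA. Pdk3, a kinase that inhibits pyruvate dehydrogenase, fell by 1.04. Of 30 pyruvate dehydrogenase and citric acid cycle genes, 16 fell and 4 rose, with a median of -0.18 (11 and 7 after quantile normalization). The called share was 66.7%, against 58.1% over all genes tested (21.7% higher, 36.4% lower). Dlat, Fh1, Pdhb and Sdhc fell (log2 fold changes -0.73, -0.67, -0.74 and -0.68).

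Nuclear genes of the respiratory chain were mostly lower. Of 36 nuclear-encoded subunits of complex I, 24 fell and 1 rose, with a median of -0.37, and of 37 subunits of complexes III to V, 29 fell and 2 rose, with a median of -0.36. Atp5b, the catalytic beta subunit of ATP synthase, stood at 973, 976 and 983 TPM in the controls and 559.7, 560.1 and 569.8 TPM under DTPA, and Ndufc2 of complex I at 272, 261 and 248 TPM in the controls and 139, 133 and 139.7 TPM under DTPA. Uqcrc2, Atp5o, Atp5k, Ndufa5, Ndufb8 and Ndufb7 fell (log2 fold changes -0.83, -0.92, -0.81, -0.86, -0.79 and -0.67). Of the 13 protein-coding genes of the mitochondrial genome, 1, mt-Co1, rose and none fell, with a median of 0.15. Without control replicate 1 none rose and 1 fell, without control replicate 2 none was called, and 4 rose without control replicate 3 or with median-of-ratios factors. All genes of the mitochondrial genome made up 11.4% to 13% of a control library and 12.6% to 14.4% of a DTPA library, ranges that overlapped. Of 36 carriers of the mitochondrial inner membrane, 11 rose and 11 fell (17 and 10 after quantile normalization), a called share of 61.1% against 58.1% over all genes tested. Slc25a4, an ATP and ADP exchanger, rose from 83.9, 87.8 and 79.1 to 137, 125 and 137 TPM, and Slc25a40 fell by 0.90.

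The balance of autophagy and lysosome genes depended on the scaling. Of 34 autophagy genes, 9 rose and 7 fell, with a median of 0.05, and the called share of 47.1% is below the 58.1% over all genes tested (21.7% higher and 36.4% lower). In this list 15 rose and 4 fell with median-of-ratios factors, and 19 and 5 after quantile normalization. Ulk1, the kinase that starts autophagy, stood at 51.9, 49.3 and 49.3 TPM in the controls and 80.7, 94.8 and 96.6 TPM under DTPA, and Atg2a, a lipid transfer protein of the forming autophagosome, at 81.6, 83.5 and 78.0 TPM in the controls and 143, 174 and 172 TPM under DTPA. Atg14 rose by 0.79, and Atg4b, a protease that processes the LC3 family, fell by 0.46. Of 32 lysosome and V-ATPase genes, 12 rose and 14 fell, with a median of -0.07. The called share was 81.2%, against 58.1% over all genes tested. In this list 12 rose and 11 fell with median-of-ratios factors and 12 and 7 after quantile normalization, with a median of 0.03 in both. The cathepsin gene Ctsz stood at 430.4, 427 and 421 TPM in the controls and 743, 736 and 762 TPM under DTPA, and Tfeb, a transcription factor of lysosome genes, at 2.58, 2.48 and 2.56 TPM in the controls and 4.45, 5.23 and 5.60 TPM under DTPA. The GTPase gene Rragd, which signals amino acids to mTORC1 at the lysosome, stood at 175, 173 and 180.5 TPM in the controls and 54.3, 54.6 and 57.0 TPM under DTPA, against 5.89 TPM at 0 h.

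Genes of nuclear structure and chromatin were lower, with marked exceptions. Of 29 lamina and nuclear pore genes, 26 fell and 1 rose, with a median of -0.75. Lmnb1, encoding lamin B1, stood at 38.2, 38.5 and 28.9 TPM in the controls and 4.89, 5.30 and 5.17 TPM under DTPA. Tmpo, encoding the lamina protein LAP2, stood at 35.6, 33.3 and 36.3 TPM in the controls and 8.05, 8.56 and 8.15 TPM under DTPA, and Sun1, which ties the lamina to the cytoskeleton, at 82.9, 82.1 and 86.9 TPM in the controls and 29.6, 31.7 and 31.1 TPM under DTPA. Nup85 fell by 1.21. Of 34 genes of DNA methylation, histone deacetylases and their complexes, 18 fell and 4 rose, with a median of -0.21. The called share was 64.7%, against 58.1% over all genes tested (21.7% higher, 36.4% lower). Uhrf1, which brings DNMT1 to replicating DNA, stood at 44.3, 45.4 and 44.5 TPM in the controls and 3.20, 3.52 and 4.51 TPM under DTPA, whereas Dnmt1 itself stood at 87.6, 88.9 and 91.1 TPM in the controls and 41.2, 45.2 and 45.4 TPM under DTPA. Ezh2, the methyltransferase of Polycomb complex 2, fell by 1.00, and Hdac7, a class IIa deacetylase, rose by 1.24. Of 8 histone variant genes, 6 fell and 1 rose: H2az1, H2ax and the centromeric Cenpa fell (log2 fold changes -1.05, -0.71 and -1.12). H2aj (0.52) did not pass when any 1 DTPA replicate was left out (adjusted p = 0.0513 to 0.0914) or without a filter on low values (0.0924). Of 20 clustered histone genes tested, 7 rose and 3 fell (4 and 0 with a filter of 5 TPM). The called share of 50.0% is below the 58.1% over all genes tested. H1f2, a linker histone gene, stood at 54.2, 51.7 and 46.0 TPM in the controls and 147, 162 and 151 TPM under DTPA. The libraries were selected for polyadenylated RNA, and most messages of clustered histone genes end without a poly(A) tail, so these values cover only a fraction of them.

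Cytoskeleton and membrane transport genes exchanged members. Among 22 tubulin and actin genes, 9 rose and 11 fell, with a median of -0.15. The beta tubulin genes Tubb2b and Tubb3, both best known from neurons, stood at 16.9, 15.5 and 14.1 TPM in the controls and 75.4, 75.4 and 75.7 TPM under DTPA and at 36.2, 34.6 and 30.9 TPM in the controls and 124, 145 and 140.2 TPM under DTPA. Tuba1b stood at 198, 184 and 183 TPM in the controls and 61.8, 65.2 and 65.0 TPM under DTPA, and Tubb4b at 1658, 1662 and 1666 TPM in the controls and 828, 918 and 902 TPM under DTPA. Tubulin genes thus differed in direction although their proteins form 1 polymer. Tuba4a and Diaph3, a formin of the cytokinetic ring, fell (log2 fold changes -0.51 and -1.46). Tubulin genes are close copies of each other, and their read split is uncertain; exons of Tuba1b also overlap those of Gm49450 on the same strand. Of 21 nucleoside, water, glucose and ion transporters, 11 fell and 5 rose (76.2% called, against 58.1% over all genes tested). Kcnn4, the calcium-activated potassium channel of red cells, stood at 25.6, 22.1 and 21.8 TPM in the controls and 3.28, 3.10 and 3.37 TPM under DTPA, and Slc29a1, the nucleoside transporter ENT1, at 60.8, 59.97 and 59.1 TPM in the controls and 15.7, 15.8 and 16.6 TPM under DTPA. Aqp3, a water and glycerol channel, stood at 2.79, 2.34 and 2.24 TPM in the controls and 10.7, 8.03 and 10.8 TPM under DTPA and rose. Of 20 polyamine and amino acid transport genes, 13 fell and 6 rose, with a median of -0.34. Slc7a1 and Slc7a6, which carry cationic amino acids, went apart, the first from 17.5, 15.99 and 18.7 to 6.96, 7.81 and 7.82 TPM and the second from 17.9, 19.4 and 16.6 to 43.5, 44.6 and 46.9 TPM.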

How the data were processed

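Polyadenylated RNA of 7 libraries was sequenced, and 1 table of TPM per library was deposited. The authors made these TPM values, per the submitters' processing notes with Trimmomatic 0.33, HISAT2 2.1.0, featureCounts and edgeR named among the tools; the annotation, gene lengths and strand setting are not given in the sources used here. TPM keep no depth, so reads were estimated from the steps between low values and GENCODE M21 exon lengths on GRCm38; 99.1% to 99.5% of low values came out whole within 0.1 read. Rows that share a symbol were summed. Values were taken as log2(TPM + 1), and genes that reached 1 TPM in 3 or more of the 6 libraries at 24 h were fitted by limma 3.58.1 in R 4.3.3 with a variance trend; p-values are two-sided and Benjamini-Hochberg adjusted over all 11147 genes, with a threshold of 0.05. Fold changes on this scale understate the change of low genes. No source says that the replicates were separate cultures, so p-values measure only the spread between these samples.

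The gene lists (58, with 1568 distinct genes tested) and the genes and motifs shown were chosen with earlier results of these data known. A list is described by its counts and, for most lists, its median. Over all genes tested, 21.7% were higher and 36.4% lower, with a median of -0.09. These values are not repeated beside every list. Named are the zinc genes, the 30 largest rises and falls with a mean of at least 5 TPM, the 15 largest gains and losses in TPM, up to 4 genes with the largest change in each list, and genes at 5 TPM or more in 1 group and under 0.5 TPM in the other. Lineage markers, Csf2rb, Cdkn1a, Kel, Ube2o and the 7 higher cell cycle genes are named outside this rule, after their values were seen. Some genes of the rule are not reported here. Promoter windows are those of RefSeq on GRCm38.p6. The fit was also run on simulated data and the motif search on a sequence with planted matches. The simulation changed a far smaller part of the genes than these data and held no shift of composition, so it cannot bear on the scaling. Replicate numbers did not pair the samples. Alternatives were other pseudocounts, filters and scalings, no variance trend, a replicate block, a fit of all 7 libraries and leaving out each library.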

Additional observations from a re-analysis of the deposited data

How the results depend on the processing

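Counts of called genes stayed within 1.5 times of the values given above under every alternative run; at 2-fold, a pseudocount of 5 TPM left 190 higher and 338 lower genes, and one of 0.1 TPM gave 552 and 717. Leaving out 1 library at a time gave 2023 to 2316 higher and 3701 to 3904 lower genes, with 367 to 420 and 582 to 603 at 2-fold. Among genes that did not pass, signs turned for Slc39a11 with median-of-ratios factors (0.04), without globin genes (0.0) and without control replicate 2, control replicate 3 or DTPA replicate 3 (-0.16 to 0.15 over all libraries left out), and for Slc39a9 with median-of-ratios factors (0.08), quantile normalization (0.11), without globin genes (0.02) and without control replicate 2 or DTPA replicate 1 (0.01 in both). Quantile normalization also turned Eef1a1 (-0.03), Rplp1 (-0.09) and mt-Nd5 (-0.23). The deviations of same-numbered control and DTPA libraries had correlations of -0.0103, 0.0242 and -0.00964, so the numbers do not pair them; with the replicate block there were 2274 higher and 3888 lower genes, 399 and 585 at 2-fold, and 266 of 269 named genes kept their call. The 3 that did not were Sirt2, Sirt7 and Slc30a2 (adjusted p = 0.0606, 0.0572 and 0.0512). At this depth genes under 5 TPM were called least often (34.8%), so a gene without a call there may differ below what these libraries can show.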

Other observations

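Several immediate-early and signalling genes rose under DTPA. Of 35 genes of TGF-beta, WNT, NOTCH and immediate-early signalling 16 were tested, of which 7 rose and 3 fell, with a median of 0.13. The called share was 62.5%, against 58.1% over all genes tested (21.7% higher, 36.4% lower, median -0.09). Egr1, an immediate-early transcription factor, stood at 7.56, 7.07 and 7.67 TPM in the controls and 31.3, 32.3 and 34.2 TPM under DTPA. Jun, a subunit of AP-1, stood at 15.9, 16.1 and 12.9 TPM in the controls and 39.5, 38.5 and 40.4 TPM under DTPA, and its relative Jund at 78.5, 73.4 and 52.8 TPM in the controls and 127, 137 and 134 TPM under DTPA. The groups were apart in all 3 genes, with log2 fold changes of 1.99, 1.35 and 0.97 (limma adjusted p = 2.84e-07, 1.03e-05 and 5.74e-04), and exons of Jund overlap those of Gm11175 on the other strand. Tgfb1, encoding the cytokine TGF-beta 1, rose from 75.3, 73.5 and 71.6 to 138, 164 and 162 TPM, and stood at 245 TPM at 0 h. Of 32 interferon and antigen presentation genes 13 were tested, with 4 higher, 4 lower and a median of 0.01. The called share of 61.5% is close to the 58.1% over all genes tested, so the count is no result about the list. The class I molecule gene H2-D1 stood at 97.1, 97.5 and 85.4 TPM in the controls and 209.9, 221 and 225 TPM under DTPA, while Ifi35, an interferon-induced gene, fell by 0.73. Among 11 KLF and SP factors tested, 2 rose and 4 fell (54.5% called, against 58.1% over all genes tested): Klf13 rose by 0.70, and Klf9, Klf3 and Sp2 fell (log2 fold changes -0.88, -0.73 and -0.35).

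Of 265 genes named Zfp, many of which encode zinc finger proteins, 69 rose (26.0%) and 65 fell (24.5%), with a median of 0.01, against 21.7% higher, 36.4% lower and a median of -0.09 over all genes tested. The called share was 50.6%, against 58.1% over all genes, and 91 rose and 46 fell with median-of-ratios factors and 94 and 44 after quantile normalization. Only 5 reached 2-fold, among them Zfp27 at 6.62, 7.71 and 7.98 TPM in the controls and 22.8, 21.4 and 21.5 TPM under DTPA and Zfp213 at 10.2, 9.06 and 8.53 TPM in the controls and 3.15, 2.19 and 3.26 TPM under DTPA. Of 6 sirtuin genes, 2 rose and 2 fell (2 and 0 under both of these scalings), with Sirt6 at 0.53, Sirt1 at -0.28, Sirt7 at 0.21 and Sirt2 at -0.13. Of these calls, Sirt7 was lost without any 1 of the libraries other than DTPA replicate 1, without the filter on low values, without the variance trend and with the replicate block (adjusted p = 0.0501 to 0.0936). Sirt2 was lost without control replicate 1 or 2, without the variance trend, without globin genes in the total and with the block (0.0606 to 0.0847), and Sirt1 without DTPA replicate 3 (0.0532). Btn1a1, a butyrophilin gene at 2.83 TPM at 0 h, stood at 437, 436 and 466 TPM in the controls and 233, 233 and 252 TPM under DTPA. Of 203 long intergenic RNA genes tested, 59 rose and 28 fell (42.9% called), against 2015 and 3667 of 8930 protein-coding genes (63.6% called) and 58.1% called over all genes. Among all 2511 genes with a mean under 5 TPM, 475 rose and 399 fell. A gene can also pass the filter through its DTPA libraries alone. The part of abundance and of the filter in the balance of these RNA genes was not tested. By chromosome, the share of genes called on the autosomes and X ran from 49.8% on chromosome 18 to 61.9% on chromosome 14.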
